A study of Mus musculus with 24 samples.

Results

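A set of 9 genes of the glutamate cycle and of N-acetylaspartate synthesis was followed in the hippocampus of female mice. They were taken by gene symbol from a deposited table of read counts with 46983 genes, and each of the 9 symbols was found once: Slc17a7, Slc1a1, Slc1a2, Slc1a3, Glul, Glud1, Slc38a1, Nat8l and Got1. All 9 passed the filter on low counts, which kept 16209 genes. The rule names them by symbol; they were proposed with earlier results of these data known. No member differed between genotypes or after early life stress at a false discovery rate of 0.02, whereas members varied together, and against each other, from mouse to mouse. Whether other genes do so as often was not computed.

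Glutamate is the main excitatory transmitter of the hippocampus. It is loaded into synaptic vesicles by neurons, cleared from the synaptic cleft mostly by astrocytes, turned into glutamine there and handed back to neurons, which split it to glutamate again. N-acetylaspartate is made from aspartate and acetyl coenzyme A in neurons and is one of the most abundant small molecules of the brain; it is broken down in oligodendrocytes. The 9 genes thus fall into neuronal and glial roles: vesicle loading (Slc17a7, also called VGLUT1), uptake from the cleft (Slc1a2 or GLT-1, Slc1a3 or GLAST, and the neuronal Slc1a1 or EAAC1), glutamine synthesis and transport (Glul and Slc38a1), the mitochondrial oxidation of glutamate (Glud1), and the exchange of amino groups between aspartate and glutamate and the acetylation of aspartate (Got1 and Nat8l).

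The study asked how deletion of Fkbp5, which encodes the co-chaperone FKBP51 of the glucocorticoid receptor, in glutamatergic forebrain neurons alters the lasting outcome of early life stress (ELS). Of the 24 mice, 6 were Fkbp5lox/lox control, 6 were Fkbp5lox/lox ELS, 6 were Fkbp5Nex control and 6 were Fkbp5Nex ELS. Both genotypes carried floxed Fkbp5 alleles on a C57BL/6 background, and Fkbp5Nex mice also carried Nex-Cre, which acts from embryonic life on in glutamatergic neurons of the forebrain but not in the dentate gyrus, so granule cells and glia of a Fkbp5Nex sample keep the gene. ELS was limited bedding and nesting material for the dam and her pups in the first postnatal week, controls had regular material, and the mice were adults that had gone through behavioural tests before tissue punches of dorsal and ventral hippocampus were sequenced. The labels do not give the litter, so mice of one litter and of different litters cannot be told apart.

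In GENCODE vM21 (GRCm38) all 9 genes are protein coding. Slc17a7 lies at chr7:45163949-45176142 on the plus strand, Slc1a2 at chr2:102658659-102790784 on the plus strand, Slc1a3 at chr15:8634124-8710764 on the minus strand and Slc1a1 at chr19:28835049-28913960 on the plus strand. Glul lies at chr1:153899944-153909723 on the plus strand, Slc38a1 at chr15:96571418-96642913 on the minus strand, Glud1 at chr14:34310727-34345265 on the plus strand, Got1 at chr19:43499752-43524605 on the minus strand and Nat8l at chr5:33995984-34005916 on the plus strand. Slc38a1, Glud1, Got1 and Nat8l overlap no other annotated gene. Exons of Glul overlap Teddm2 and Mir8114, those of Slc1a1 overlap 4430402I18Rik and those of Slc1a2 overlap Gm13872. Reads given to these neighbours were few: at most 1115 over all mice for Glul (708051 reads), 2227 for Slc1a1 (58681) and 16 for Slc1a2 (1299775). Processed copies were low as well, with 490 reads for Glns-ps1 beside Glul, and 550 for RP24-178G20.2 beside Glud1 (135924). How the counting treated strand and reads that match several places is not given in the sources used here, so the values of Glul, Glud1, Slc1a1 and Slc1a2 carry that uncertainty.

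Sequences before the transcription start were read for the genes that varied together between mice, 2 from the astroglial set (Slc1a3 and Glul) and 2 from the neuronal set (Slc17a7 and Got1). They are the 250 bases before the start in RefSeq (GRCm38.p6), 5′ to 3′ on the gene's own strand. Capitals mark 3 motifs searched on both strands. The GC box was searched as GGGCGG, which lies on the other strand where it reads CCGCCC. The CCAAT box is named by its own letters and reads ATTGG on the other strand. The TATA box was searched as TATAAA, or TTTATA on the other strand.
Slc1a3, chr15:8710808-8711057, minus strand: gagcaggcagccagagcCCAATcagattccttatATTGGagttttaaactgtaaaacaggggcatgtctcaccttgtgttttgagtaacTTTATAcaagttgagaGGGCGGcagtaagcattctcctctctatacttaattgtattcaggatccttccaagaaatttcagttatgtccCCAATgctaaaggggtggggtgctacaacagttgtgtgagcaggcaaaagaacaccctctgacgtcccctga
Glul, chr1:153899679-153899928, plus strand: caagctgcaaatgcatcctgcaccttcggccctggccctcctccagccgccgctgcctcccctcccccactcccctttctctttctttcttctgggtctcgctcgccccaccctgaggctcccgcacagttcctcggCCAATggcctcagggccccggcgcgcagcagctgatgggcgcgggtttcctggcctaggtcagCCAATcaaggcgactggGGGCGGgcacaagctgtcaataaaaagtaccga
Slc17a7, chr7:45163671-45163920, plus strand: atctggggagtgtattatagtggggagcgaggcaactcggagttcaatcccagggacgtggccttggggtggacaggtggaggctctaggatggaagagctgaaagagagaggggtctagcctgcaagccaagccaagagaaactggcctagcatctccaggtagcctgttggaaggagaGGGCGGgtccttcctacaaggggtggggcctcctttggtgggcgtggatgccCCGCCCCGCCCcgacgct
Got1, chr19:43524606-43524855, minus strand: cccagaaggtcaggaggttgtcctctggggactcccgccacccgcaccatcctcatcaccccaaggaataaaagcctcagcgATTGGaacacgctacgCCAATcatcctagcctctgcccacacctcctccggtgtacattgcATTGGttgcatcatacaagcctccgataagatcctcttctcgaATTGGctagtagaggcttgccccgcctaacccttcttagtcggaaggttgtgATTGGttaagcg
The windows of the 4 genes differ. The Slc17a7 window holds 3 GC boxes and no CCAAT or TATA box, the Got1 window 5 CCAAT boxes and neither of the others, the Slc1a3 window 3 CCAAT boxes, 1 GC box and 1 TATA box, and the Glul window 2 CCAAT boxes and 1 GC box. Over all 32851 windows of the same length, 32.7% hold a GC box, 33.8% a CCAAT box and 12.4% a TATA box. The E-box CANNTG (N is any base), shown without capitals, stood in the windows of Slc17a7, Slc1a3 and Glul and not in that of Got1, against 66.2% of all windows. The Slc1a2 window, not printed because 29 of its bases belong to an exon of another transcript of the gene, holds 4 E-boxes and none of the 3 capitalised motifs. G and C made up 44.8% of the Slc1a3 window, 54.4% of that of Got1, 61.2% of that of Slc17a7 and 64.8% of that of Glul, beside a median of 52.4% over all windows. RefSeq windows matched 7 of the 9 genes. The E-box was in 5 of these 7, near its share among all windows. A match is a string of letters and not a bound site.

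Total counts lay between 18347283 and 26555623 per mouse. The members were deeply read, from 2019 reads for Slc1a1 in one mouse to 89261 for Slc1a2 in another, so that counting error was at most 2.23% of a value (1 SD of a Poisson count). Fkbp5 itself had 1078 to 1602 reads in Fkbp5lox/lox mice and 169 to 582 in Fkbp5Nex mice, without overlap, a log2 fold change of -2.04 (SE 0.10, edgeR quasi-likelihood adjusted p = 5.75e-12). Markers of CA1, CA3 and dentate gyrus granule cells were read in every group, and none of the markers in 11 lists of cell types and regions was at 0 in all mice. One library, Fkbp5Nex control mouse 12, stood apart: its score over 10 astrocyte markers (mean of the standardized levels) was 2.51 and its score over 6 microglial markers 2.44, the highest of all mice. Fkbp5lox/lox ELS mouse 8 had the lowest CA1 score (-2.56) and the highest dentate gyrus score (2.21).

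Per kilobase of exon, Glul was the most abundant of the 9 genes and Slc38a1 the least. Median levels over the 24 mice, in CPM (read counts scaled to one common library size) per kilobase of merged exons, were 405 for Glul, 244 for Slc17a7, 181 for Slc1a2, 151 for Got1, 73.8 for Slc1a3, 62.4 for Glud1, 33.0 for Nat8l, 13.9 for Slc1a1 and 9.64 for Slc38a1. The ranges over mice separated Glud1 from Nat8l, Nat8l from Slc1a1 and Slc1a1 from Slc38a1. The ranges of the neighbours above Glud1 overlapped, yet Glul was above Slc17a7 in 24 of 24 mice, Slc17a7 above Slc1a2 in 20, Slc1a2 above Got1 in 22, Got1 above Slc1a3 in 23 and Slc1a3 above Glud1 in 21. The order rests on exon lengths of 2539 bases (Got1) to 17236 bases (Slc38a1), which count all annotated exons whether or not the hippocampus uses them.

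**Figure D1:**
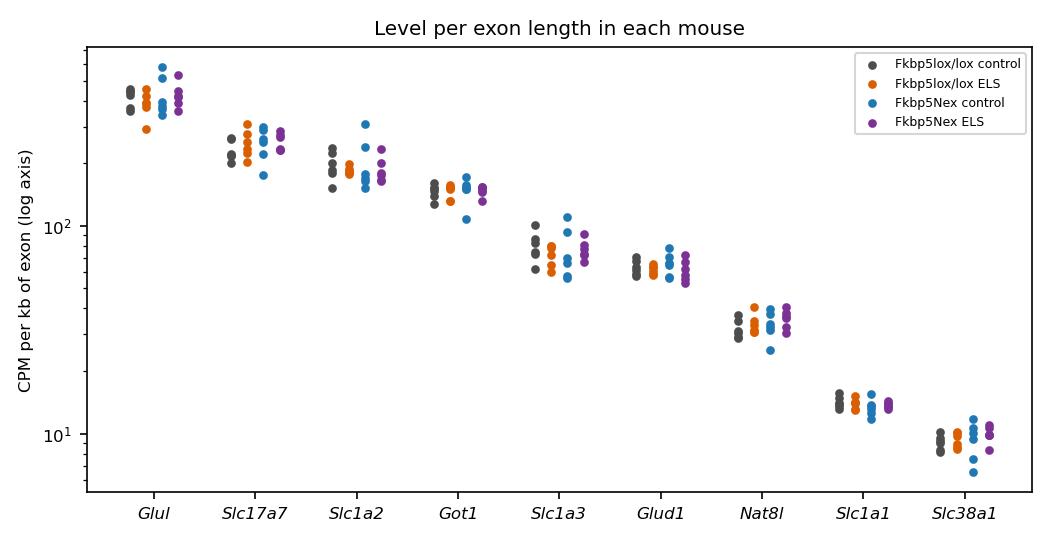
Level of each gene in CPM per kilobase of exon (log axis) in each of the 24 mice, coloured by group. The genes are ordered by their median, from 405 for Glul to 9.64 for Slc38a1, and the 4 groups overlap for every gene.

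Slc17a7 packs glutamate into the vesicles of most cortical and hippocampal excitatory neurons. In CPM, scaled by the trimmed mean of M values, it ranged from 1080.3 to 1423 (median 1189) in Fkbp5lox/lox control mice and from 1092 to 1672 (median 1314) in Fkbp5lox/lox ELS mice. In Fkbp5Nex mice it ranged from 948 to 1603 (median 1384) under control conditions and from 1243 to 1544 (median 1350.4) after ELS. The groups overlapped throughout, and the lowest value of all was that of mouse 12.

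The astrocytic transporters Slc1a2 and Slc1a3, which clear most glutamate from the cleft, had their extremes in Fkbp5Nex control mice. Slc1a2 ranged from 1999 to 3122 CPM (median 2528) in Fkbp5lox/lox control, from 2327 to 2605 (median 2403) in Fkbp5lox/lox ELS, from 1992 to 4057 (median 2278) in Fkbp5Nex control and from 2154 to 3084 (median 2322) in Fkbp5Nex ELS mice. The 6 Fkbp5lox/lox ELS mice lay close together, with an SD of 0.06 on the log2 scale against 0.23, 0.40 and 0.20 in the other groups in the order given; whether these spreads differ was not tested. Slc1a3 ranged from 527 to 856 CPM (median 671), from 511 to 686 (median 641), from 478 to 941 (median 579.8) and from 569.7 to 784 (median 641) in the same order. Mouse 12 was highest for both genes, and the groups overlapped. Slc1a1, the transporter of neurons that takes up glutamate and cysteine, was the most even of the members: 108 to 129.7 CPM (median 116) in Fkbp5lox/lox control, 107 to 126 (median 116) in Fkbp5lox/lox ELS, 97.3 to 128 (median 110.4) in Fkbp5Nex control and 109 to 118 (median 114) in Fkbp5Nex ELS mice.

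Glul, the astrocytic enzyme that makes glutamine from glutamate and ammonia, ranged from 1188 to 1516 CPM (median 1446) in Fkbp5lox/lox control and from 971 to 1518 (median 1289.6) in Fkbp5lox/lox ELS mice. In Fkbp5Nex mice it ranged from 1134 to 1925 (median 1282) under control conditions and from 1192 to 1771 (median 1390.1) after ELS. The Fkbp5Nex groups held the higher maxima, while their minima lay inside the range of Fkbp5lox/lox mice. Slc38a1, a carrier that brings glutamine into neurons, ranged from 141 to 175 CPM (median 157), from 145 to 175 (median 160.2), from 112 to 203 (median 168) and from 143 to 189.6 (median 169.9) in Fkbp5lox/lox control, Fkbp5lox/lox ELS, Fkbp5Nex control and Fkbp5Nex ELS mice. Glud1, glutamate dehydrogenase of mitochondria, spanned 222 to 329.8 CPM over all mice, with group medians of 262, 261, 276 and 252 in the same order. All groups overlapped for the 3 genes.

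Got1, the cytosolic aspartate aminotransferase of the malate-aspartate shuttle, had nearly level medians of 380.2, 383, 386 and 382 CPM in Fkbp5lox/lox control, Fkbp5lox/lox ELS, Fkbp5Nex control and Fkbp5Nex ELS mice. Its lowest value, 274 CPM, was that of mouse 12; the next lowest of the other mice of that group was 380.3. Nat8l, the enzyme that acetylates aspartate, had medians of 205, 217, 221 and 243 CPM in that order and a range of 168 (mouse 12) to 272. The groups overlapped for both genes.

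**Figure D2:**
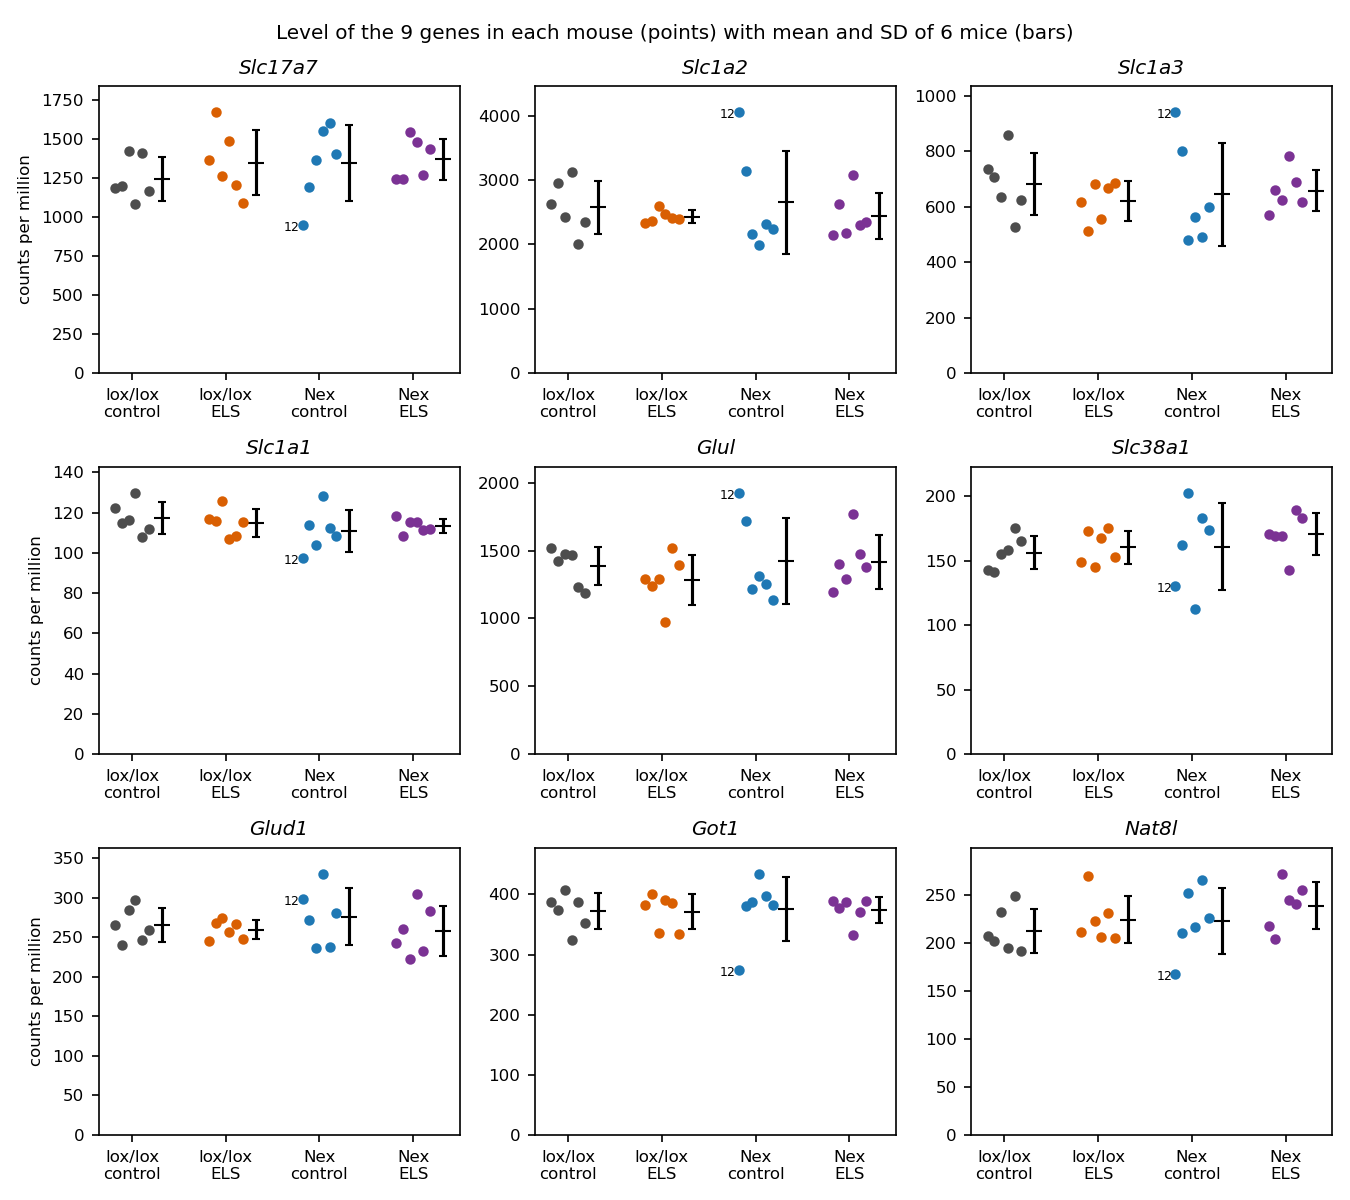
Level in CPM (axis from 0) of the 9 genes in each mouse by group, with the mean and SD of 6 mice at the right of each group; mouse 12 is marked. All groups overlap, and mouse 12 is highest for Slc1a2 (4057), Slc1a3 (941) and Glul (1925) and lowest for Slc17a7 (948), Got1 (274) and Nat8l (168).

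Deletion of Fkbp5 was compared first, averaged over control and ELS mice in one edgeR quasi-likelihood fit with 5 surrogate variables over all genes tested. The largest differences among the members were those of Glul, 12.5% higher in Fkbp5Nex mice (95% interval 3.13% to 22.6%), and Slc1a1, whose fitted change was -5.19% (-9.03% to -1.19%). Neither passed: Glul had a log2 fold change of 0.17 (SE 0.06, adjusted p = 0.269) with 7 of 12 Fkbp5Nex mice above the median of Fkbp5lox/lox mice under the same condition, and Slc1a1 a log2 fold change of -0.08 (SE 0.03, adjusted p = 0.298) with 2 of 12 above it. Slc38a1, at 0.06 (SE 0.03), had an adjusted p of 0.432 in edgeR's test. The other log2 fold changes were 0.07 for Slc1a2 and for Nat8l, 0.05 for Slc1a3, 0.01 for Slc17a7 and for Glud1 and -0.03 for Got1.

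Thus 0 of 9 members were called for genotype by edgeR, against 0.117% of all genes tested (19 genes, Fkbp5 included). At an unadjusted p under 0.05 there were 3 of 9 (Glul, Slc1a1 and Slc38a1), while 11.5% of all genes tested passed that mark; DESeq2 called 0 and had 3 under 0.05 as well. The median log2 fold change of the members was 0.05, with 7 above and 2 below 0, beside -0.0013 for all genes. Without mouse 12 the members' median was -0.025, with 4 above and 5 below 0, and 1 of 9 (Glul) was under 0.05 beside 6.5% of all genes. Without Fkbp5lox/lox control mouse 74 it was 1 of 9 too (beside 8.3%), and with any other mouse left out 2 to 4 (beside 9.42% to 13.9%). Without mouse 12 the Glul difference was 0.22 and that of Slc1a1 was -0.03, and Slc17a7 moved from 0.01 to -0.10, all short of the threshold (adjusted p of 0.719, 0.922 and 0.812 in edgeR). The count over all genes fell from 19 to 2 without this mouse.

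Within control mice, 0 members were called for genotype (0.0494% of all genes were), and 2 of 9 had an unadjusted p under 0.05 against a background of 8.69%. They were Slc1a1, at -0.10 (SE 0.04), and Slc1a2, at 0.14 (SE 0.06), with adjusted p of 0.468 and 0.512 in edgeR. For Slc1a2 this fitted value stood beside a plain difference of 0.01 between the group means of log2 CPM, and 2 of 6 Fkbp5Nex control mice were above the Fkbp5lox/lox median. The count was 0 of 9 without mouse 12 (beside 4.83% of all genes), without Fkbp5lox/lox control mouse 74 (5.2%) and in a fit of the 12 control mice alone. It was 1 to 3 with any other mouse left out (beside 7.47% to 11.2%). Within ELS mice, 0 members were called (0.0123% of all genes) and 1 of 9 was under 0.05 against 6.59%, namely Glul at 0.23 (SE 0.09, edgeR adjusted p = 0.698), with 5 of 6 Fkbp5Nex mice above the Fkbp5lox/lox median. Without surrogate variables this difference was 0.14 (SE 0.12), and the plain difference of means was 0.15 (exact permutation p = 0.268). The count was 0 of 9 in the 12 ELS mice alone and without Fkbp5lox/lox ELS mouse 72 (beside 4.73% of all genes). It was 1 to 3 with any other mouse left out (beside 5.31% to 8.35%).

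**Figure D3:**
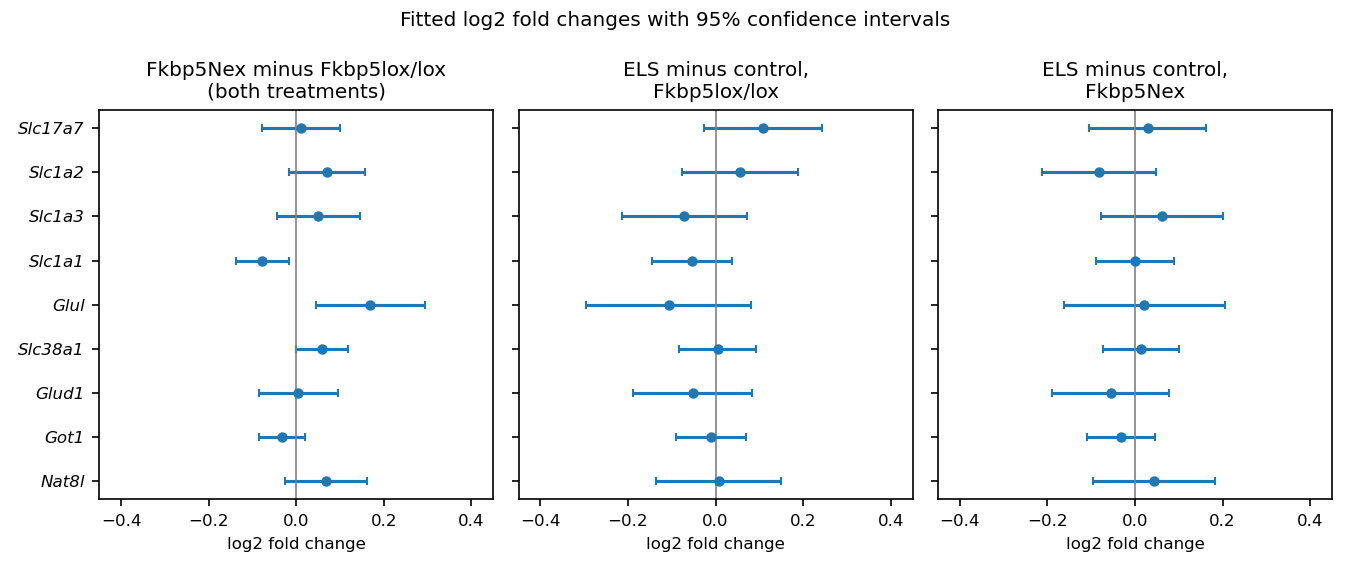
Fitted log2 fold changes (points) with 95% confidence intervals (bars) of the 9 genes for genotype and for ELS within each genotype, n = 6 mice a group. Glul (0.17) and Slc1a1 (-0.08) lie farthest from 0 for genotype, and every interval for ELS includes 0.

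After ELS the levels of the 9 genes lay within the spread between mice. In Fkbp5lox/lox mice the log2 fold changes ran from -0.11 (Glul) to 0.11 (Slc17a7), and the 95% intervals together reached from -18.5% to 18.3%. Slc17a7 had an SE of 0.06 and Glul of 0.09, and no adjusted p in edgeR was under 0.956. The values of the others were 0.06 for Slc1a2, -0.07 for Slc1a3, -0.05 for Slc1a1 and Glud1, 0.0045 for Slc38a1, 0.0069 for Nat8l and -0.01 for Got1. In Fkbp5Nex mice they ran from -0.08 (Slc1a2, SE 0.06) to 0.06 (Slc1a3, SE 0.07), with 0.04 for Nat8l, 0.03 for Slc17a7, 0.02 for Glul, 0.01 for Slc38a1, -0.00035 for Slc1a1, -0.06 for Glud1 and -0.03 for Got1, and intervals from -13.7% to 15.3%. These contrasts share no mice with each other, but both share theirs with the genotype comparisons.

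For ELS, edgeR called 0 members within Fkbp5lox/lox mice, within Fkbp5Nex mice and averaged over both, as it did for all genes (0% in each). At an unadjusted p under 0.05 there were 0 of 9 members in each, beside 4.86%, 2.8% and 3.56% of all genes, and DESeq2 called 0 in each too. With 1 mouse left out the count under 0.05 stayed 0 of 9, except within Fkbp5lox/lox mice without control mouse 50 (1 of 9, beside 6.88%). The ELS effect in Fkbp5lox/lox mice minus that in Fkbp5Nex mice was tested as an interaction. It was 0.14 for Slc1a2 (SE 0.09) and -0.13 for Slc1a3 (SE 0.09), the ends of the range over the members, and 0 members were called (0% of all genes) or under 0.05 (4.02% of all genes). The count under 0.05 was 2 of 9 without Fkbp5Nex control mouse 32, beside 5.97% of all genes. It was 1 of 9 without Fkbp5Nex control mouse 64 (beside 3.82%) or Fkbp5lox/lox control mouse 44 (beside 4.3%), and 0 with any other mouse left out. An exact two-sided permutation test of each member's log2 CPM, made without surrogate variables in the same 7 comparisons, gave 0 of 63 p-values under 0.05, the smallest being 0.201, although 6 mice against 6 can reach 0.00216. For the interaction this test exchanged ELS and control labels within each genotype. It thereby assumed no ELS effect in either genotype, which is stricter than equal effects in both.

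A further 44 genes of glutamate, glutamine, N-acetylaspartate and GABA handling gave the setting; 43 were tested, and 0 were called in any of the 7 comparisons by edgeR. Slc1a7, a retinal transporter, had at most 5 reads per mouse. For genotype 5 of 43 (11.6%) had an unadjusted p under 0.05, close to the 11.5% of all genes, so the count does not set the list apart. The 3 with higher values in Fkbp5Nex mice were Slc13a3, which carries N-acetylaspartate and dicarboxylates, at 0.26 (SE 0.10), Abat, which degrades GABA, at 0.09 (SE 0.04), and Slc17a6, the vesicular transporter VGLUT2, at 0.50 (SE 0.24). Rimkla, which joins N-acetylaspartate to glutamate, had -0.11 (SE 0.05) and mitochondrial malate dehydrogenase Mdh2 -0.06 (SE 0.03). Their adjusted p ran from 0.294 (Slc13a3) to 0.430 (Slc17a6) in edgeR.

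Slc17a6 was low beside Slc17a7, from 1.84 to 46.5 CPM over mice, with group medians of 5.83 in Fkbp5lox/lox control, 9.54 in Fkbp5lox/lox ELS, 9.70 in Fkbp5Nex control and 12.9 in Fkbp5Nex ELS mice. For ELS 2 of 43 (4.65%) were under 0.05 beside 3.56% of all genes, Gpt (alanine aminotransferase, -0.26, SE 0.10) and Folh1 (which cleaves N-acetylaspartylglutamate, -0.21, SE 0.10), and within Fkbp5lox/lox mice 1 of 43 (2.33%) was, beside 4.86%, the mitochondrial glutamate carrier Slc25a22 (0.12, SE 0.05). For genotype within ELS mice 3 of 43 (6.98%, beside 6.59%) were under 0.05: Abat at 0.13 (SE 0.05), Mdh2 at -0.08 (SE 0.04) and Slc1a5, a neutral amino acid carrier, at 0.40 (SE 0.18). Within control mice 1 of 43 (2.33%, beside 8.69%) was, Slc13a3 at 0.32 (SE 0.13). Abundant genes of other roles that passed neither mark were the glutamine carrier Slc38a2 (median 111 CPM), the amino acid carrier Slc1a4 (73.9), Got2 (296), Mdh1 (639.6) and Rimklb (54.6).

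Mice of the same group differed widely. For each of the 9 genes the SD within groups was larger than the largest difference between any pair of group means. How many of all genes tested meet this was not counted. The SD within groups, on the log2 scale, was 0.26 for Slc1a3, 0.25 for Slc1a2, 0.22 for Glul, 0.21 for Slc17a7, 0.19 for Slc38a1, 0.18 for Nat8l, 0.15 for Got1, 0.14 for Glud1 and 0.09 for Slc1a1. By this SD, Glud1 stood at percentile 36.2 of all genes tested and Slc1a3, the most variable member, at 66.9.

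Deviations from the group means were then correlated over the 24 mice, for all 36 pairs of members, with 100000 permutations of the mice within groups. Pairs were called when both Pearson's r and Spearman's rho had an adjusted permutation p under 0.05, which held for 9 of 36. The share of such pairs among all genes tested was not computed, so the count does not set the members apart. Slc1a2, Slc1a3 and Glul rose and fell together: r was 0.86 for Slc1a2 and Slc1a3 (rho 0.80, adjusted permutation p = 0.0009), 0.81 for Slc1a3 and Glul (rho 0.82, p = 0.00156) and 0.74 for Slc1a2 and Glul (rho 0.72, p = 0.00329). Leaving out the 2 mice whose deviations of the first-named gene lay farthest from their median gave 0.79, 0.71 and 0.58. These are the uptake transporters and the synthetase of astrocytes.

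Slc17a7, Nat8l and Got1 formed a second set. It is called neuronal by the roles of Slc17a7 and Nat8l and not by markers. The score of general excitatory markers was called with Nat8l alone. Here r was 0.80 for Slc17a7 and Nat8l (rho 0.72, adjusted permutation p = 0.0009), 0.74 for Slc17a7 and Got1 (rho 0.75, p = 0.00324) and 0.60 for Nat8l and Got1 (rho 0.57, p = 0.0396), and 0.67, 0.59 and 0.34 without 2 mice. Between the sets r was negative for all 9 pairs (-0.76 to -0.32), and 3 of the 9 were called; Glul was called with no gene of the neuronal set and Nat8l with none of the astroglial set. Slc1a3 had r of -0.74 with Slc17a7 (rho -0.70, adjusted permutation p = 0.00216) and of -0.75 with Got1 (rho -0.74, p = 0.00216), and Slc1a2 had r of -0.76 with Got1 (rho -0.57, p = 0.00318). Without 2 mice these were -0.61 (mice chosen by Slc17a7), -0.70 and -0.53. With the surrogate variables removed from the values as well, 1 pair of 36 was called and several signs turned: r was -0.80 for Slc17a7 and Got1 (adjusted permutation p = 0.00216) and -0.63 for Nat8l and Got1 (p = 0.0396, not called), and it changed sign for 6 of the 9 pairs between the sets. The permutations did not allow for the 5 variables already taken out, so these p-values are approximate and may be too small. The variables held 91.5% of the variance of Got1 within groups, so its r here concerns the small rest. The pairs of Slc1a2, Slc1a3 and Glul (0.31 to 0.70) and Slc17a7 with Nat8l (0.69) kept a positive r.

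Mouse 12 lay at the end of these relations. Without it 8 pairs were called, 7 of them among the 9: Slc1a2 with Slc1a3 (r 0.80), Slc1a3 with Glul (0.74), Slc1a2 with Glul (0.63), Slc17a7 with Nat8l (0.71), Slc17a7 with Got1 (0.58), Slc1a3 with Slc17a7 (-0.62) and Slc1a3 with Got1 (-0.60). Nat8l with Got1 (0.34) and Slc1a2 with Got1 (-0.56, rho -0.42) were then not called, and Slc1a1 with Slc38a1 was (-0.71, rho -0.68). Within single groups of 6 mice r ranged from 0.35 to 0.94 for Slc1a2 and Slc1a3, from 0.63 to 0.98 for Slc1a3 and Glul, from 0.59 to 0.93 for Slc17a7 and Nat8l, from -0.93 to -0.60 for Slc1a3 and Got1 and from -0.89 to -0.50 for Slc1a2 and Got1, one sign in all 4 groups. It ranged from -0.95 to 0.25 for Slc1a3 and Slc17a7, from -0.20 to 0.93 for Slc1a2 and Glul, from -0.23 to 0.91 for Slc17a7 and Got1 and from -0.03 to 0.77 for Nat8l and Got1, so these did not keep their sign in every group.

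**Figure D4:**
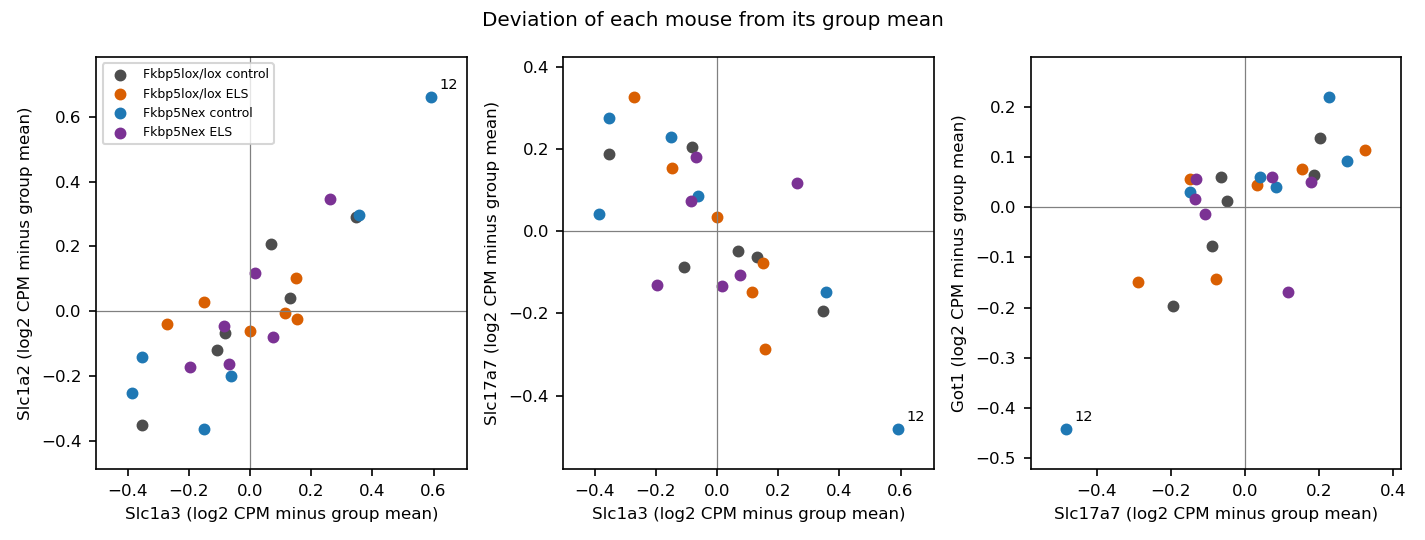
Deviations of log2 CPM from the group mean in each of the 24 mice for 3 pairs of genes, coloured by group, with mouse 12 marked. Slc1a2 follows Slc1a3 (r 0.86), Slc17a7 runs against Slc1a3 (r -0.74) and Got1 follows Slc17a7 (r 0.74). That last relation had r of -0.80 once the surrogate variables, which held 91.5% of the variance of Got1 within groups, were removed.

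Markers of cell types and hippocampal fields moved with the members. These lists hold none of the 9 genes, and 26 of 99 relations between a member and a score were called by the same rule as for pairs. The share of called relations among other genes was not computed. The astrocyte score had r of 0.78 with Slc1a3 (rho 0.66), 0.78 with Glul (rho 0.76), 0.73 with Glud1 (rho 0.77) and 0.71 with Slc1a2 (rho 0.64), with adjusted permutation p of 0.00314, 0.00297, 0.0111 and 0.0203 over the 99 relations. Without mouse 12 these were 0.67, 0.69, 0.78 and 0.53. All 10 astrocyte markers were tested and none was at 0. Their summed level ranged from 2606 to 3321 CPM in Fkbp5lox/lox control, from 2750.45 to 3154 in Fkbp5lox/lox ELS, from 2681 to 5654 in Fkbp5Nex control and from 2464 to 3532 in Fkbp5Nex ELS mice. In bulk tissue fewer cells of a type and less RNA per cell cannot be told apart.

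The microglial score went with the same astroglial genes, Slc1a3 (r 0.79, rho 0.68, adjusted permutation p = 0.00297), Slc1a2 (0.71) and Glul (0.68), and against Slc38a1 (-0.69), with 6 of 6 markers tested and summed levels of 241 to 320.0, 248 to 287, 223 to 444 and 226 to 367 CPM in the 4 groups in the same order. The CA3 score had r of 0.72 with Got1 (rho 0.59, adjusted permutation p = 0.00814), 0.63 with Slc17a7 (rho 0.60, p = 0.0172) and -0.77 with Slc1a3 (rho -0.68, p = 0.00297). Its 6 markers, all tested, summed to 564 to 758 CPM in Fkbp5lox/lox control, 548 to 783 in Fkbp5lox/lox ELS, 529 to 913 in Fkbp5Nex control and 669 to 869.9 in Fkbp5Nex ELS mice. The CA3 score was called with Nat8l (0.60) and Slc1a2 (-0.68) too. The score of general excitatory markers was called with Nat8l alone of the 9 (r 0.59, rho 0.55, adjusted permutation p = 0.0252); its r was 0.47 with Slc17a7 (p = 0.0687) and -0.01 with Got1.

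Slc38a1 sat with the oligodendrocyte score (r 0.74, rho 0.83, adjusted permutation p = 0.00297; 0.70 without mouse 12). This score was also called with Nat8l (r 0.61, rho 0.54, adjusted permutation p = 0.0245), and against Slc1a3 (-0.77), Slc1a2 (-0.70) and Glul (-0.55). The 7 oligodendrocyte markers, all tested, summed to 1381 to 5122, 1474 to 4415, 1464 to 6359 and 2019 to 4339.6 CPM in the 4 groups. Glul went with the dentate gyrus granule cell score (r 0.74, rho 0.71, adjusted permutation p = 0.00582; 0.63 without mouse 12), as did Slc1a3 (0.66), and Slc38a1 went against it (-0.60). Its 6 markers, all tested, summed to 276 to 457, 234 to 912, 132 to 657 and 154 to 468 CPM. The choroid plexus score was called with Slc38a1 (0.61) and against Slc1a3 (-0.66), Glud1 (-0.62) and Glul (-0.53), and the scores of CA1, GABA interneurons, endothelial cells and thalamus with none of the 9. The dentate score had medians of 0.40 and 0.66 in Fkbp5lox/lox mice and of -0.89 and -0.69 in Fkbp5Nex mice, control before ELS. None of the 8 markers of thalamus, and none of the 6 of choroid plexus (Folr1 and Otx2 were below the filter), was at 0 in all mice; the choroid plexus markers summed to between 14.4 and 4519.8 CPM per mouse, with medians of 879 and 525.7 CPM in Fkbp5lox/lox mice and 51.3 and 142 in Fkbp5Nex mice. The part of these markers in the differences between groups was not tested beyond the surrogate variables.

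**Figure D5:**
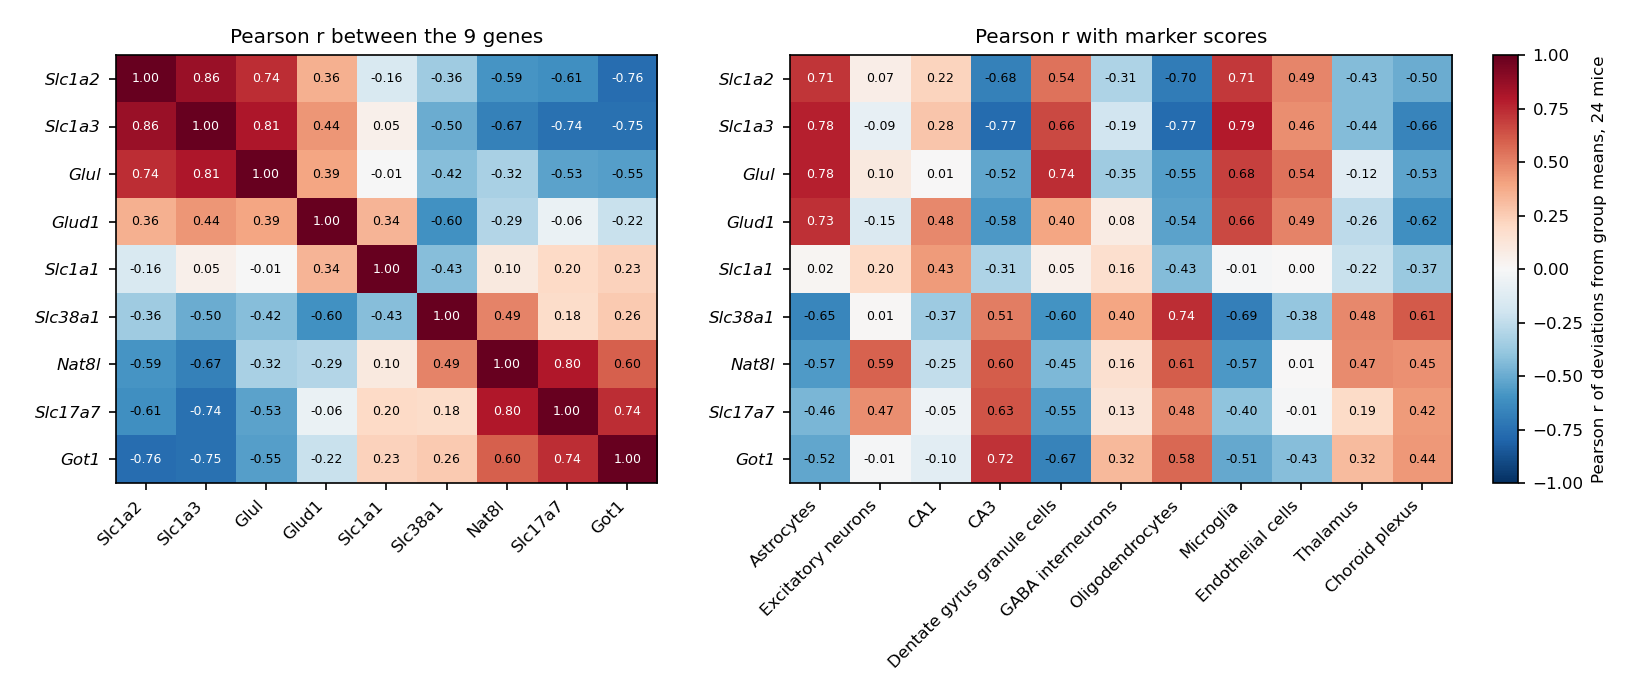
Pearson r of deviations from group means over 24 mice, between the 9 genes (left) and between the genes and 11 marker scores (right), from -1 in blue to 1 in red. Slc1a2, Slc1a3 and Glul form one block, Nat8l, Slc17a7 and Got1 another, with negative values between them.

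The surrogate variables of the fit took up this shared variation. They held from 57.5% (Glud1) to 92.6% (Slc38a1) of the members' variance within groups, and the first had r of -0.84 with Slc1a3, -0.72 with Glul, 0.71 with Got1, -0.80 with the astrocyte score and -0.88 with the dentate gyrus score. The SE of the genotype difference of Slc1a2 was 0.04 with and 0.10 without them. Without them Glul had a genotype difference of 0.09 (SE 0.09) and 0 of 9 members had an unadjusted p under 0.05 for any comparison, Glul and Slc1a1 included.

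The genes nearest to each member in these deviations, over 24 mice and all genes tested, are given with r as a description. For the astroglial set they were Slc7a2 (0.92), C030018K13Rik (0.91) and Gpam (0.91) for Slc1a2, Ndnf (0.94), Mertk (0.93) and Asrgl1 (0.92) for Slc1a3, and Gldc (0.93), Gm14569 (0.91) and Naaa (0.89) for Glul. For Glud1 they were Tst (0.85), Tril (0.85) and C1qtnf6 (0.84). For the neuronal set they were Nell2 (0.94), Svop (0.94) and Lrrn2 (0.93) for Slc17a7, Mapk8ip3 (0.91), Dnm1 (0.91) and Hcn2 (0.91) for Nat8l, and Atp6v1h (0.97), Pkm (0.97) and Pgk1 (0.96) for Got1. Slc38a1 had Phlpp1, Kif13a and Ubxn2a (0.91 each) and Slc1a1 had Htatsf1 (0.81), Snrpa (0.79) and Sh3bp1 (0.79), the weakest of the 9. The glycolytic genes Pkm and Pgk1 still had r of 0.93 with Got1 without mouse 12, and Mertk, a receptor for the engulfment of debris, 0.89 with Slc1a3. All libraries share their depth and dissection with every gene in them.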

How the data were processed

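RNA from hippocampal punches of 24 female mice was sequenced by a provider. The deposited values are raw counts of reads per gene, which the authors made, per the labels, with HISAT2 2.0.5 and featureCounts 1.5.0-p3; the genome build, annotation and strand setting are not given in the sources used here. Each column was matched to a mouse by its label. The mouse numbers are unique and the labels give no litter, so the groups of 6 were compared unpaired.

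Testing covered the 16209 of 46983 genes that reached 10 counts in each mouse of 1 group or more, with edgeR 4.0.16 (quasi-likelihood F test, trimmed mean of M values, group means plus 5 surrogate variables from sva 3.50.0) and Benjamini-Hochberg adjustment over all genes at 0.02. SE and 95% intervals come from that fit. CPM are scaled by the same factors, log2 CPM with a prior count of 2. Exact permutation tests used the 924 divisions of 12 mice, within the other factor for averaged contrasts and within each genotype for the interaction. The script was tested on simulated data. DESeq2 1.42.0, other filters and scalings, no surrogate variables and each mouse left out were alternatives. Named genes of the wider list had an unadjusted p under 0.05 or the highest CPM of their role, of which some are not reported here; motifs were chosen after the data were seen. The members and the lists of genes and markers were chosen with earlier results of these data known. Nothing says the mice came from separate litters, so p-values measure the spread between these mice. Figures used matplotlib 3.10.9.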

Additional observations from a re-analysis of the deposited data

Results flagged for a closer look

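Of the 36 combinations of a member and a group, 2 held a mouse far from the other 5, by a gap over 0.625 of the group's range on the log2 CPM scale. Chance flags about 1 in 20 such groups. Both were low values of Got1. Fkbp5Nex control mouse 12 had 274 CPM, with a gap of 0.714 of the range, against 380.3 to 433.7 CPM in the other mice of the group. It also had the highest astrocyte score of all mice, 2.51. Fkbp5Nex ELS mouse 60 had 333 CPM, with a gap of 0.675, against 370.1 to 389.6 CPM in the others; its microglial score, 1.41, was the highest of its group. Mouse 60 was also highest of its group for the astrocyte, endothelial and dentate gyrus scores. Mice 12 and 60 had the lowest CA3 scores of their groups, -1.264 and -0.487. Over all mice CA3 was the only score called with Got1 (r 0.72, 0.64 without mouse 12). The astrocyte and microglial scores were not called (r -0.52 and -0.51, adjusted permutation p of 0.0988 and 0.0952). Without mouse 12 their r was -0.13 and -0.22. The part of these markers in the 2 low values was not tested.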

How the results depend on the processing

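No member was called in any of the 7 comparisons by edgeR or under any alternative that was run (DESeq2, DESeq2 size factors, other filters or none, a false discovery rate of 0.05, no surrogate variables, only the 12 mice compared, or each mouse left out, 0 to 0 members), and the exact permutation tests had 0 p-values under 0.05 with a prior count of 0.5 as well. The fits of only the 12 mice compared held no surrogate variables either. No paired analysis was possible because the groups share no mouse numbers and the labels do not give the litter. The paper describes the Fkbp5lox/lox mice as littermates, with each dam and litter assigned to ELS or control. Refits were tallied for 32 member values: those for genotype, for ELS within each genotype and some members named in the other comparisons. Of 949 such refitted values 872 kept their sign and 77 changed it, none of them called, with adjusted p of 0.176 or more. Values outside this tally changed sign too. Without mouse 12 the genotype difference within control mice went from 0.051 to -0.093 for Slc17a7 and from 0.050 to -0.069 for Nat8l. For genotype the sign changed without a filter for Slc17a7 (-0.018) and Glud1 (-0.015), with filterByExpr for Glud1 (-0.0024) and without surrogate variables for Got1 (0.014). For ELS in Fkbp5lox/lox mice it changed for Slc1a2 without surrogate variables (-0.086) and in the 12 mice alone (-0.088), and for Slc38a1 without a filter (-0.0043). For ELS in Fkbp5Nex mice Slc1a1 was 0.034 without surrogate variables, 0.0010 with DESeq2, 0.0014 with its size factors, 0.0088 with filterByExpr, 0.030 without a filter and 0.036 in the 12 mice alone, and Glul was -0.0082 without surrogate variables and -0.0066 in the 12 mice. The cause was not tested.

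With each mouse left out, those of the 32 tallied values that changed sign ranged, for genotype, from -0.100 to 0.039 (Slc17a7), -0.0077 to 0.096 (Slc1a2), -0.051 to 0.020 (Glud1) and -0.025 to 0.097 (Nat8l). For ELS in Fkbp5lox/lox mice they ranged from -0.0090 to 0.12 (Slc1a2), -0.030 to 0.046 (Slc38a1), -0.060 to 0.055 (Nat8l) and -0.037 to 0.0010 (Got1), and in Fkbp5Nex mice from -0.042 to 0.070 (Slc17a7), -0.016 to 0.027 (Slc1a1), -0.045 to 0.13 (Glul), -0.0093 to 0.030 (Slc38a1) and -0.014 to 0.097 (Nat8l). Of the 36 relations 9 were called with variance-stabilised values too and 8 without mouse 12, which was chosen after seeing the data. With surrogate variables removed as well 1 was, Slc17a7 with Got1, and with the opposite sign (r -0.80). Removing those variables takes out most of the variance in question, and the permutations did not allow for that.

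Counts over all genes moved more. For genotype, 19 became 70 with DESeq2, 50 at 0.05, 3 without surrogate variables and 2 to 32 with a mouse left out. Within control mice, 8 became 53, 29, 2 and 1 to 14, and 2 in the 12 mice alone, also without surrogate variables. Within ELS mice 2 became 4 with DESeq2. For ELS, 0 became 1 with DESeq2 in Fkbp5lox/lox mice, and 1 without a filter in Fkbp5Nex mice and on average. Counting error was at most 2.23% of a value for the 9 members and was not computed for the other genes.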
